A study of Mus musculus with 20 samples.

Results

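Heart ventricle from mice given 16α-LE2, which the labels call an agonist of estrogen receptor α, was compared with ventricle from a group titled beta, 5 samples against 5. These 10 of the 20 samples of the series were taken by their titles, alpha or beta, and by nothing that was measured. All 20 samples came from female C57BL/6 mice ovariectomized at 8 weeks of age and then carrying an implanted minipump for 4 weeks, so the controls had lost their ovaries too. The beta samples carry a treatment label of control solution. The labels do not settle what the title stands for, and the group is called beta-titled here. The remaining groups, 5 samples each, had received placebo solution or 17β-estradiol, and doses are not stated. Each sample was hybridised to 1 Affymetrix mouse array. A level is a log2 value as deposited, and a change of 1 was read as 2-fold.

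Estrogen receptor α is a nuclear receptor. Bound by estrogen, it attaches to DNA near its target genes, directly or through other transcription factors, and alters their transcription. It has been described in heart muscle cells, fibroblasts and vessel cells. Fibroblasts make most of the heart's collagen matrix, whereas glucose enters heart muscle through the transporters encoded by Slc2a1 and Slc2a4, and the series is concerned with receptor α and glucose uptake.

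The array held 18193 genes with a probe set of their own, and the 12082 whose mean level exceeded the median of all probe sets were tested. Among the 10 arrays of the comparison, Spearman correlations ranged from 0.978 to 0.992. Beta-titled replicates 31 and 32 had a narrower spread of values (SD 1.32 and 1.30) than the other beta-titled arrays (1.42 to 1.44) and the 16α-LE2 arrays (1.38 to 1.41). Estradiol replicate 33 stood apart from the other 19 arrays (Spearman correlations 0.922 to 0.941) and entered this comparison through the estimate of the spread, which all arrays share. The difference between 3′ and 5′ control probe sets, a measure of RNA integrity, ran from −0.09 to 0.24 for Actb with 16α-LE2 and from −0.01 to 0.20 in the beta-titled samples. The 12 ventricular cardiomyocyte markers listed all lay above the filter, with a mean level of 13.91 to 14.04 with 16α-LE2 and 13.78 to 14.03 in the beta-titled samples. Esr1 and Esr2, which encode estrogen receptors α and β, lay below the filter at mean levels of 6.89 and 6.54 and were not tested. The p-values measure the spread between samples, which the labels do not tie to separate animals in so many words. The median half-width of a 95% confidence interval was 0.21 log2 units, a precision limited by the number of arrays.

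Of the 12 genes that fell with 16α-LE2, 8 stood in the lists of matrix genes, and of the 9 that rose 1 did. Those lists hold 86 of the tested genes (0.712%). They were chosen with earlier results of these data known, so these counts are a description and no test. One of the 8, Nrep, encodes an intracellular protein and no matrix component, and without it the count is 7. The 86 also include 15 genes of TGF-β signalling, receptors and Smads among them, of which none passed. The genes that rose included the glucose transporter gene Slc2a1. In all, 21 genes (0.174% of those tested) passed at a limma adjusted p under 0.05, 9 higher (0.0745%) and 12 lower (0.0993%) than in the beta-titled samples, and 676 (5.6%) had an unadjusted p under 0.05. The genes that fell were Sparc, Col3a1, Nrep, Itih5, Fstl1, Aplnr, Col8a1, Col5a2, Col14a1, Colec11, Mmp2 and Itga6. Those that rose were Spon1, Nppb, Ptgds, Mt2, Hspa1l, Sra1, Asb11, Slc2a1 and Mgst1. The values of both groups were apart, with no overlap, for 20 of the 21, against 275 of all tested genes (2.28%), and the exception was Mt2. The calls rest on the same values, so this is not separate evidence. After quantile normalization the split was 9 higher and 23 lower, and with arrays centred on their medians 4 higher and 9 lower. Rises ran from 0.37 for Hspa1l to 0.98 for Nppb, and falls from −0.58 for Col14a1 to −1.69 for Aplnr. Single arrays changed the number of calls. It was 7 without 16α-LE2 replicate 30, 16α-LE2 replicate 33 or beta-titled replicate 31, 8 without beta-titled replicate 32, 9 without 16α-LE2 replicate 34, 10 without 16α-LE2 replicate 32, 11 without beta-titled replicate 33 and 37 without estradiol replicate 33. With beta-titled replicates 31 and 32 both left out, a choice made after seeing the data, 2 genes passed, Col3a1 and Sparc.

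**Figure D1:**
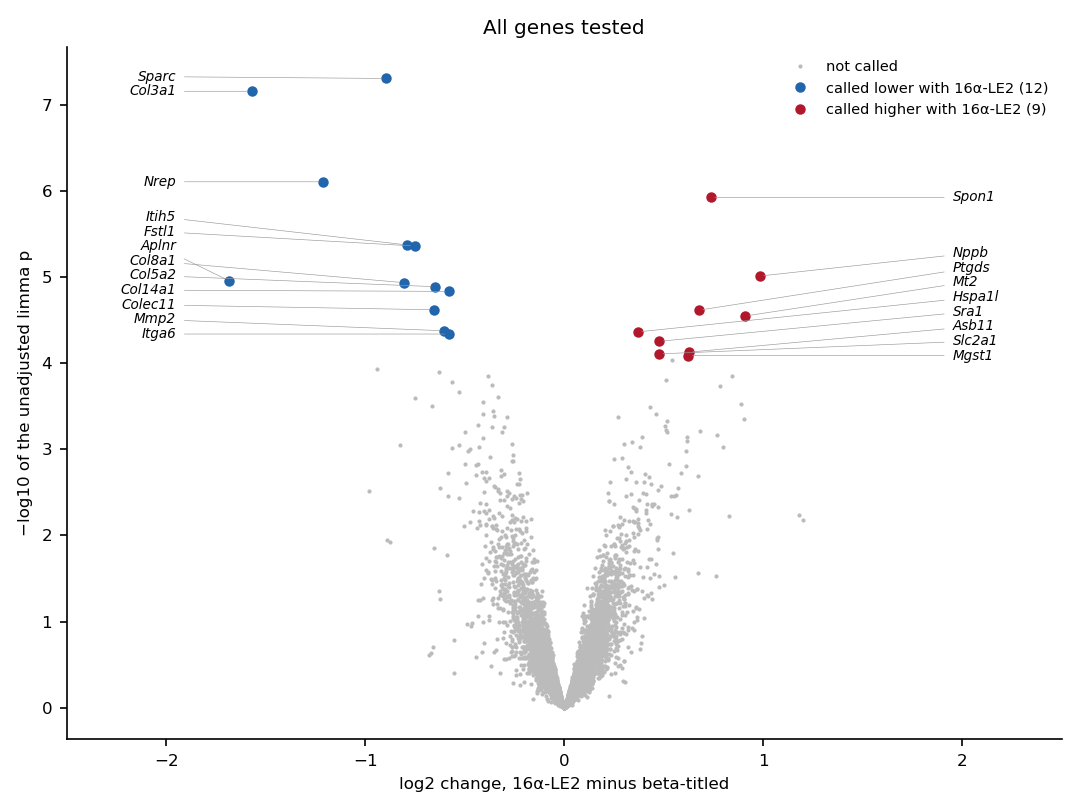
Log2 change between 16α-LE2 and beta-titled samples (x axis) against −log10 of the unadjusted limma p (y axis) for the 12082 tested genes, 1 point each. The 12 genes called lower (blue) and the 9 called higher (red) are named, with Sparc and Col3a1 at the top left and Spon1 highest on the right.

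The stretch of 250 bases upstream of the start was read for those called genes that a RefSeq promoter table (GRCm38.p6) lists, 13 of the 21, with 14 promoters among them. The complete palindromic estrogen response element, GGTCANNNTGACC, was in 0 of the 14 and in 0.0639% of all 32851 promoters of the table. Its half-site, GGTCA on either strand (which reads TGACC on the other and is contained in the complete element), was in 3 of 8 promoters of genes that rose (37.5%), in 2 of 6 of genes that fell (33.3%) and in 35.2% of all. The upstream stretches of Sparc, Itih5 and Slc2a1 are shown, as the fall of smallest p, the 1 other fall with a half-site and the glucose transporter that rose. Those of Col3a1, Fstl1, Col8a1 and Colec11, which also fell, held none and are not shown. All 3 shown hold the half-site, which was in 5 of the 14 promoters. Each runs 5′ to 3′ on the gene's own strand and ends at the base before the start, with the half-site in capitals.
Sparc, chr11:55420081-55420330, minus strand: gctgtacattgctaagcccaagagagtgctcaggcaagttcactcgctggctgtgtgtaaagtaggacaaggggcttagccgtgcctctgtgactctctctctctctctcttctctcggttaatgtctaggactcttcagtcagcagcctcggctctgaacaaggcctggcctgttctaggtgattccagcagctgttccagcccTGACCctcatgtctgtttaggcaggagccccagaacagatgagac
Itih5, chr2:10153293-10153542, plus strand: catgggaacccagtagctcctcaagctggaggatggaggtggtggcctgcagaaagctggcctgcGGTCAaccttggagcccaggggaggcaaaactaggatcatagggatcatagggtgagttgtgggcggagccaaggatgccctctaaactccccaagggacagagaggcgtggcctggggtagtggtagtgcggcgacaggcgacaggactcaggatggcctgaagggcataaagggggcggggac
Slc2a1, chr4:119108495-119108744, plus strand: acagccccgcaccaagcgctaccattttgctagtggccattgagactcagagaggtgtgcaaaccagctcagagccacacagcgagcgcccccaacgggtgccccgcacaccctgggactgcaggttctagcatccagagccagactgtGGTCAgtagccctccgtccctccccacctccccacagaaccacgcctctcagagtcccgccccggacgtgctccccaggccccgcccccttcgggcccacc
The half-site began 45 bases before the start for Sparc, 185 for Itih5 and 101 for Slc2a1. It also lay upstream of Hspa1l, at 27 bases, and of 1 of the 2 listed starts of Mgst1, at 52 bases.

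Among matrix genes Sparc, which encodes a secreted glycoprotein that binds collagen, had a log2 change of −0.90 ± 0.11 SE and passed (limma adjusted p = 0.00042). Its level was 11.12, 10.66, 10.93, 10.75 and 10.81 in 16α-LE2 replicates 29, 30, 32, 33 and 34. It was 12.01, 11.36, 11.80, 11.83 and 11.75 in beta-titled replicates 31, 32, 33, 35 and 36, an order kept for all values of both groups below. Beta-titled replicate 32 was the lowest of its group and still above every 16α-LE2 sample, and the placebo (11.74 to 12.08) and estradiol (11.27 to 11.57) samples lay above them as well. In bulk tissue such as this, fewer cells of a type and less RNA per cell cannot be told apart. Another Sparc probe set changed by −0.90 and one of much lower signal by 0.00065.

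Col3a1, a fibrillar collagen, stood at 9.55, 9.12, 8.86, 8.75 and 9.09 with 16α-LE2 and at 10.99, 10.87, 10.78, 10.34 and 10.24 in the beta-titled samples. All 16α-LE2 samples lay below all beta-titled samples, and the gene was 2.97-fold lower (log2 change −1.57 ± 0.20 SE, limma adjusted p = 0.00042). Its other probe set changed by −0.72. Nrep, which encodes the intracellular neuronal regeneration-related protein and stands in the list of noncollagen matrix proteins without being one, stood at 8.11, 7.80, 7.79, 7.62 and 7.52 against 9.06, 8.95, 9.47, 8.59 and 8.84. It was 2.32-fold lower (log2 change −1.21 ± 0.18 SE, limma adjusted p = 0.00315), again with no overlap. The calls of Sparc and Col3a1 held in each of the 32 alternative settings, and that of Nrep in 31, the exception being the fit without beta-titled replicates 31 and 32 (adjusted p = 0.0739).

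**Figure D2:**
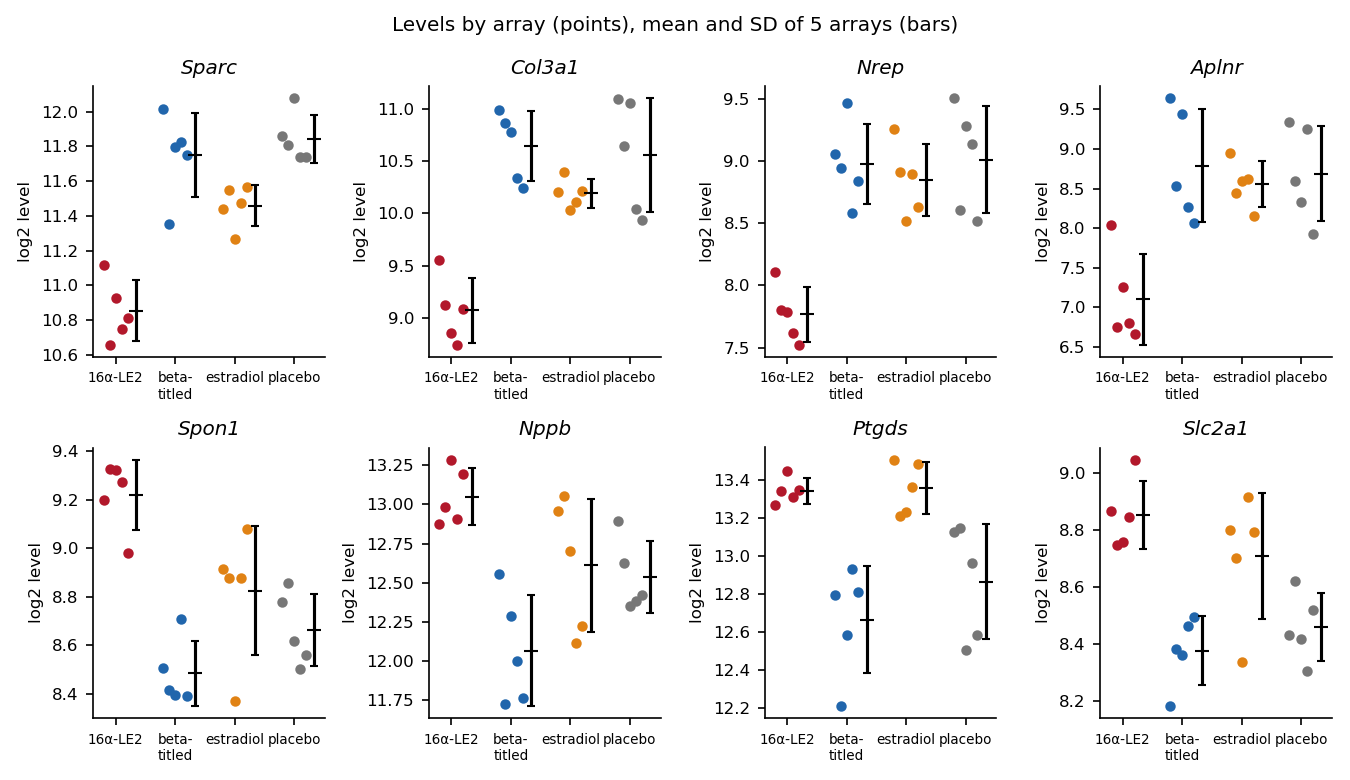
Log2 level (y axis) of 8 genes in the 5 samples of each group (points) with the mean and SD of the group (bars). The 16α-LE2 samples lie below all other samples for Sparc, Col3a1 and Nrep, and above every beta-titled sample for Spon1, Nppb, Ptgds and Slc2a1.

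The tested collagens lay below the beta-titled level. Of the 13 listed, 12 were tested, all 12 had a negative change, 4 passed, and the median was −0.38, against 0.0036 over all tested genes. Without beta-titled replicates 31 and 32 all 12 remained below 0 and the median was −0.20. Col8a1, a short-chain collagen of vessel walls, was 1.75-fold lower (limma adjusted p = 0.0156), at 7.82 to 8.40 against 8.83 to 8.92. Col5a2, which takes part in the assembly of collagen fibrils, was 1.57-fold lower (limma adjusted p = 0.0156), at 7.98 to 8.29 against 8.46 to 9.03. Col14a1, a collagen associated with fibrils, was 1.49-fold lower (limma adjusted p = 0.0161), at 6.86 to 7.04 against 7.46 to 7.64. None of these 3 overlapped between the groups, and the call was lost in 4, 5 and 6 respectively of the 20 fits that left out 1 array, with adjusted p from 0.0518 to 0.0688. In each case these were among 16α-LE2 replicates 30, 32, 33 and 34 and beta-titled replicates 31 and 32. The chains of collagen I did not pass: Col1a2 had a log2 change of −0.66 (adjusted p = 0.105) and Col1a1 one of −0.17 (adjusted p = 0.963). The collagen VI genes Col6a1, Col6a2 and Col6a3 had log2 changes of −0.38, −0.35 and −0.37, none past the threshold.

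Matrix proteins other than collagen were split. Of the 21 tested besides Nrep, 2 fell (Sparc and Fstl1), 1 rose (Spon1), 15 had a negative change, and the median was −0.19. With Nrep the list had 22 tested, 3 that fell and a median of −0.20. Fstl1, a secreted follistatin-like glycoprotein, was 1.68-fold lower (limma adjusted p = 0.00878), at 9.30 to 9.69 with 16α-LE2 against 10.13 to 10.42. Spon1, which encodes the secreted protein F-spondin, went the other way. It stood at 9.20, 9.33, 9.32, 9.27 and 8.98 with 16α-LE2 and at 8.51, 8.41, 8.40, 8.71 and 8.39 in the beta-titled samples. The groups did not overlap, although 16α-LE2 replicate 34 was the lowest of its group, and the log2 change was 0.74 ± 0.11 SE (limma adjusted p = 0.00359). Postn, encoding the fibroblast product periostin, had a log2 change of −0.94 (adjusted p = 0.0617) and Smoc2, a calcium-binding matrix protein, one of −0.56 (adjusted p = 0.0707). Both were apart between the groups and did not pass.

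The remaining matrix lists held 1 gene that passed. Mmp2, which encodes a gelatinase, was 1.52-fold lower (limma adjusted p = 0.0326), at 8.67 to 9.01 against 9.18 to 9.77. Its call was lost without 16α-LE2 replicate 30, 32, 33 or 34 or beta-titled replicate 31, 32 or 35 (adjusted p 0.0507 to 0.134). It was the 1 gene to pass among 18 tested matrix enzymes and inhibitors (median −0.13), of which Mmp3, Adamts1 and Lox lay above the beta-titled level, with log2 changes of 0.47, 0.42 and 0.42 that did not pass. All 8 small leucine-rich proteoglycans, proteins that coat collagen fibrils, were below 0 (median −0.32) with none past the threshold, from Aspn at −0.63 (adjusted p = 0.304) to Dcn at −0.0015. Among 11 basement membrane genes 10 were below 0 (median −0.25), and Nid1, a linker of laminin and collagen, had the largest change in size at −0.43 (adjusted p = 0.171). The 15 TGF-β signalling genes tested, a pathway that drives matrix production, had a median of −0.04, and Ccn2, a growth factor induced by it, had a log2 change of 0.56 that did not pass (adjusted p = 0.778).

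**Figure D3:**
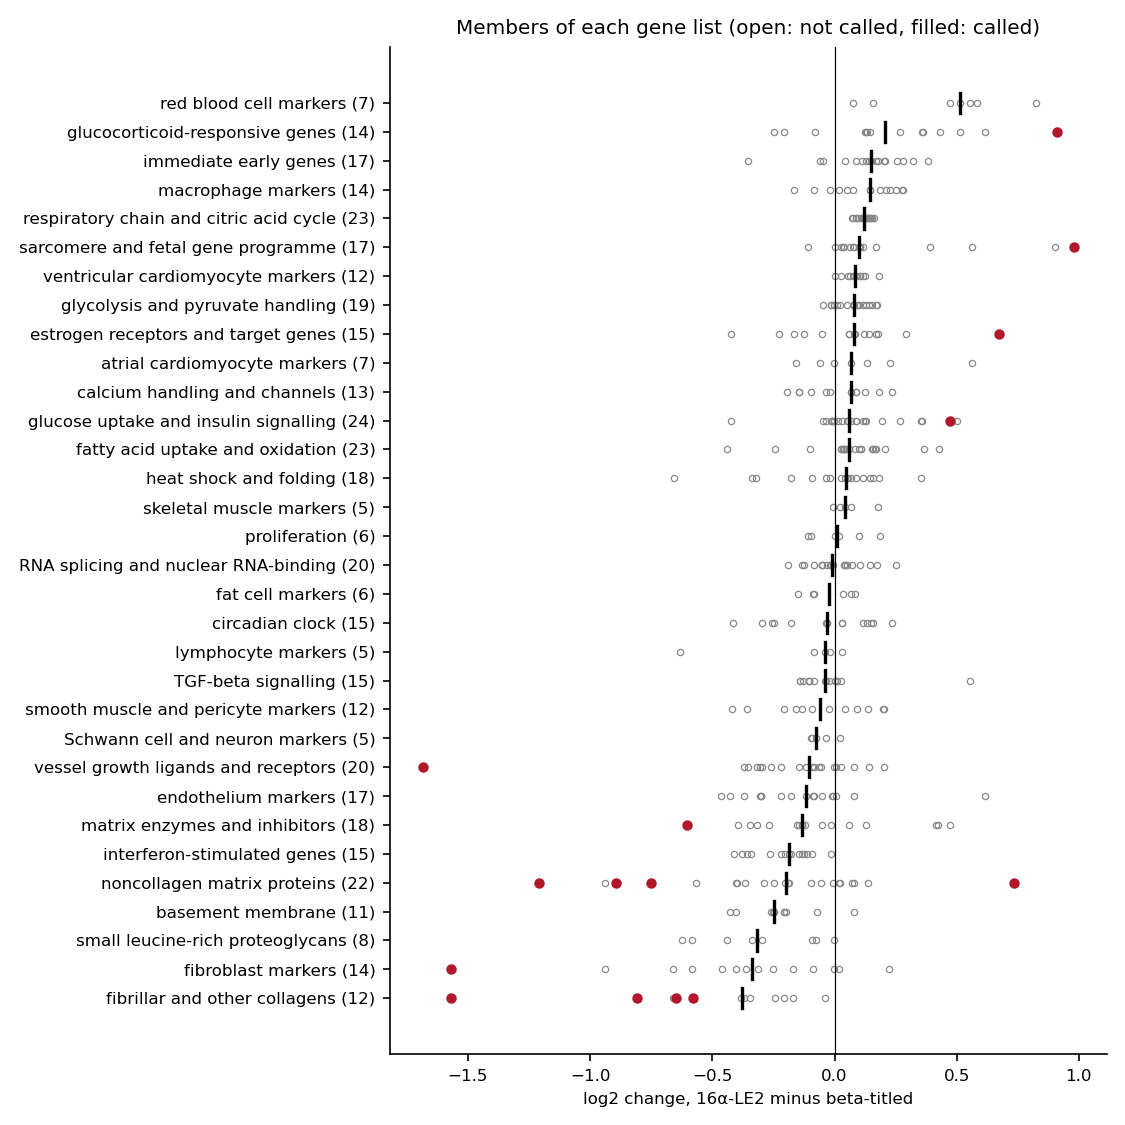
Log2 change between 16α-LE2 and beta-titled samples (x axis) of the tested members of each gene list (number in brackets), filled where the gene passed and open where it did not, with a bar at the list's median. The lowest medians are those of the collagens (−0.38), the fibroblast markers (−0.34) and the small leucine-rich proteoglycans (−0.32), and the highest is that of the red blood cell markers (0.51). Genes can stand in more than 1 list.

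Markers of the fibroblast, the cell that makes this matrix, mostly lay lower. Of the 14 tested, 7 are themselves in the matrix lists, so this is not separate from the matrix result. Of these 14 tested 12 were below 0 (median −0.34) and Col3a1 passed. The mean level of the list was 9.69, 9.64, 9.69, 9.56 and 9.66 with 16α-LE2 and 10.12, 10.01, 9.98, 10.10 and 10.01 in the beta-titled samples, so that the groups did not overlap. It ran from 9.71 to 10.25 with placebo. The markers differed among themselves, from Col3a1 up to Gsn at a log2 change of 0.22. Pdgfra, the receptor that marks resident fibroblasts, and Tcf21, a transcription factor of these cells, had log2 changes of −0.09 and 0.02, and Dcn, a proteoglycan they make in bulk, did not differ beyond its error (−0.0015 ± 0.11 SE). Ddr2, a collagen receptor, had a log2 change of −0.36 (adjusted p = 0.0733), Vim one of −0.46 (adjusted p = 0.383) and Lum one of −0.58 (adjusted p = 0.315). What part the number of fibroblasts had in the matrix result was not tested.

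Other genes that fell have roles in adhesion, hyaluronan binding, innate immunity and vessels. Itih5, a member of the inter-α-trypsin inhibitor heavy chain family, which binds hyaluronan, stood at 7.68 to 8.03 against 8.47 to 8.80 and was 1.73-fold lower (limma adjusted p = 0.00878). Itga6, an integrin chain that binds laminin, stood at 8.46 to 8.89 against 9.13 to 9.54 and was 1.5-fold lower (limma adjusted p = 0.0326). Colec11, a collectin that recognises sugars on microbes, stood at 9.27 to 9.69 against 9.87 to 10.27 and was 1.57-fold lower (limma adjusted p = 0.0225). None of them overlapped between the groups. Leaving out 1 array ended the call in 9 of 20 fits for Itga6 and 7 for Colec11 (adjusted p up to 0.143), and in none for Itih5. For Itga6 these left out 16α-LE2 replicate 30, 32, 33 or 34 or any of the beta-titled arrays, and for Colec11 16α-LE2 replicate 30, 33 or 34 or beta-titled replicate 31, 33, 35 or 36.

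Aplnr, the receptor of the peptide apelin on endothelium, had the largest fall. It stood at 8.04, 6.75, 7.26, 6.81 and 6.66 with 16α-LE2 and at 9.64, 8.53, 9.44, 8.27 and 8.06 in the beta-titled samples. Replicate 29 of 16α-LE2 was the highest of its group and lay just under the lowest beta-titled sample, replicate 36. The gene was 3.22-fold lower (log2 change −1.69 ± 0.30 SE, limma adjusted p = 0.0156). Its other probe set changed by −0.45, and with the mean of both the call was lost. It was also lost without 16α-LE2 replicate 30, 33 or 34 or beta-titled replicate 31 or 33 (adjusted p 0.0547 to 0.0688). Apln, its ligand, had a log2 change of −0.26 with no overlap between the groups and did not pass (adjusted p = 0.197). Of 20 vessel growth genes tested Aplnr was the 1 that passed, 15 were below 0 and the median was −0.10.

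Among heart muscle genes Nppb, which encodes the B-type natriuretic peptide that ventricles release under load, rose 1.98-fold (log2 change 0.98 ± 0.17 SE, limma adjusted p = 0.0156). It stood at 12.87, 12.99, 13.28, 12.91 and 13.19 with 16α-LE2 and at 12.56, 11.73, 12.29, 12.00 and 11.76 in the beta-titled samples. The groups did not overlap, and beta-titled replicate 31 came nearest. Its call was lost without 16α-LE2 replicate 32 or 34 or beta-titled replicate 32 (adjusted p 0.0507 to 0.0535). Myh7, the β myosin heavy chain, had a log2 change of 0.90 ± 0.22 SE and did not pass (adjusted p = 0.121). Its level was 11.12, 10.47, 10.84, 11.03 and 11.58 against 9.926, 9.968, 10.009, 10.635 and 9.9965. Beta-titled replicate 35 lay above the lowest 16α-LE2 sample, whereas the other 4 beta-titled samples lay close together. Nppa, the atrial natriuretic peptide gene, had a log2 change of 0.56 (adjusted p = 0.412), and Myh6, the α myosin heavy chain, one of 0.03 ± 0.11 SE. The sarcomere and fetal programme list, 17 genes tested with Nppb the 1 that passed, had 16 above 0 and a median of 0.10, which after quantile normalization was −0.01 with 7 above 0.

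Slc2a1, the gene of the glucose transporter GLUT1, was the 1 gene of 24 tested in the glucose uptake and insulin signalling list that passed. It stood at 8.86, 8.75, 8.76, 8.85 and 9.05 with 16α-LE2 and at 8.18, 8.38, 8.36, 8.46 and 8.50 in the beta-titled samples. The groups did not overlap, and beta-titled replicate 31 was the lowest of its group. The gene was 1.39-fold higher, with a log2 change of 0.47 ± 0.10 SE and a limma adjusted p of 0.0469, and its other probe sets changed by 0.46 and 0.29. The call lay close to the threshold: it was lost in 16 of the 20 fits that left out 1 array, with adjusted p from 0.0517 to 0.173. It held without estradiol replicate 29, 33 or 34 or placebo replicate 36, none of which belongs to the comparison. It was also lost with no filter on low levels, with median centring, with replicate number as a block and without both narrow beta-titled arrays, up to an adjusted p of 0.302. Over all 32 alternative settings it held in 12.

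The other 4 transporters tested had changes smaller than their SE. Slc2a4, the gene of GLUT4, which insulin brings to the cell surface, stood at 10.87 to 10.93 with 16α-LE2 and at 10.66 to 11.004 in the beta-titled samples (log2 change 0.07 ± 0.10 SE, 95% confidence interval −0.15 to 0.28). Slc2a3, Slc2a8 and Slc2a12 had log2 changes of −0.00261, 0.09 and −0.00303. Of the insulin pathway, Insr, the insulin receptor, and its substrates Irs1 and Irs2 had log2 changes of 0.35, 0.50 and 0.36, with adjusted p of 0.613, 0.835 and 0.382. Igf1, an insulin-like growth factor, had one of −0.42 (adjusted p = 0.346) with no overlap. Over the list 16 genes were above 0 and 8 below, with a median of 0.06. Without beta-titled replicates 31 and 32 the majority turned, with 10 above and 14 below and a median of −0.02. Pdk4, a kinase that holds back pyruvate oxidation, had a log2 change of 0.14 ± 0.20 SE.

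Energy genes lay slightly above the beta-titled level in the values as deposited, without any call. All 23 tested genes of the respiratory chain and citric acid cycle were above 0, from 0.07 to 0.16 with a median of 0.12, 20 of 23 genes of fatty acid uptake and oxidation were above 0 (median 0.06), and 14 of 19 of glycolysis (median 0.08). The 12 ventricular cardiomyocyte markers were likewise above 0 (median 0.08). Both the size and, for some lists, the sign of these medians depended on the scaling of the arrays and on the narrow beta-titled arrays. After quantile normalization the respiratory median was 0.01 with 17 of 23 above 0, and the cardiomyocyte median was −0.02 with 4 of 12 above 0. Without beta-titled replicates 31 and 32 they were 0.02 and 0.03. The fatty acid median was 0.0029 after quantile normalization, with 12 of 23 above 0, and turned to −0.04 without those arrays, with 9 of 23 above 0. The glycolysis median was 0.02 and 0.0072 in the same order, with 10 of 19 above 0 in both. The medians of the collagens, fibroblast markers, interferon-stimulated genes and red blood cell markers kept their sign under these settings.

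Of 22 listed genes of estrogen receptors, estrogen-related receptors and targets known from other tissues, 15 lay above the filter. Those below it were Esr1, Esr2, Gper1, Pgr, Greb1, Myc and Gata3. The 15 tested thus held none of the listed estrogen receptors, but did hold the estrogen-related receptors Esrra, Esrrb and Esrrg. Ptgds, a prostaglandin D synthase, was the 1 that passed. It stood at 13.27, 13.34, 13.45, 13.31 and 13.35 with 16α-LE2 and at 12.79, 12.21, 12.58, 12.93 and 12.81 in the beta-titled samples. The 16α-LE2 samples lay close together, and the beta-titled samples were spread more widely, all of them lower. The gene was 1.6-fold higher, with a log2 change of 0.67 ± 0.13 SE and a limma adjusted p of 0.0225, and its other probe set changed by 0.84. Its call was lost without 16α-LE2 replicate 30, 32, 33 or 34 or beta-titled replicate 31, 32 or 33 (adjusted p 0.0547 to 0.0832). Sra1, which encodes a coactivator of steroid receptors, was 1.39-fold higher (limma adjusted p = 0.0374), at 10.65 to 10.93 against 10.12 to 10.53. Its call was lost in 12 of the 20 fits without 1 array (adjusted p up to 0.163).

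Of the remaining genes that rose, Mt2, a metal-binding metallothionein that glucocorticoids and stress induce, stood at 11.61, 11.98, 12.11, 12.62 and 12.42 against 10.93, 11.23, 11.06, 11.68 and 11.29. It was 1.88-fold higher (limma adjusted p = 0.0244), although beta-titled replicate 35 lay above 16α-LE2 replicate 29. Hspa1l, a member of the heat shock protein family, was 1.29-fold higher (limma adjusted p = 0.0326), at 7.29 to 7.77 against 7.14 to 7.25. Asb11, a substrate receptor of a ubiquitin ligase, stood at 11.89 to 12.53 against 11.35 to 11.80, and Mgst1, a glutathione transferase of membranes, at 12.32 to 12.81 against 11.60 to 12.23. Both were 1.54-fold higher, with a limma adjusted p of 0.0469 and no overlap. The call was lost in 8 of 20 fits without 1 array for Mt2 and for Hspa1l, in 13 for Asb11 and in 15 for Mgst1, with adjusted p up to 0.185. Over all 32 alternative settings the call of Asb11 held in 11 and that of Mgst1 in 9. Both were lost, for instance, with median centring and with probe sets averaged, although Asb11 has 1 probe set and averaging left its own values unchanged. The other probe set of Mgst1, of much lower signal, changed by 0.00249. Over the 21 called genes 16 had further probe sets, 23 in number, of which 22 had the same sign as the one used and 1, of Sparc, did not.

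Red blood cell markers stood above the beta-titled level. All 7 tested were above 0 with a median of 0.51, and none passed. Slc4a1, the anion exchanger of the red cell membrane, had a log2 change of 0.51 (adjusted p = 0.0697), Alas2, the first enzyme of haem synthesis in these cells, one of 0.83 (adjusted p = 0.41), and Hba-a1, an α-globin gene, one of 0.07. The mean level of the list was 9.08, 9.11, 9.42, 10.11 and 9.37 with 16α-LE2 and 9.10, 8.85, 9.03, 8.91 and 8.91 in the beta-titled samples. 16α-LE2 replicate 33 was the highest, and replicates 29 and 30 lay near the highest beta-titled sample. Car2, a carbonic anhydrase that red blood cells hold in quantity, was also highest in replicate 33, at 9.06 against 8.35 to 8.50 in the other 16α-LE2 samples, and missed the threshold (log2 change 0.54, adjusted p = 0.0506). The part of blood in these values was not tested.

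Of the other cell types, the endothelium list had 14 of 17 tested markers below 0 (median −0.12), with a mean level of 9.24 to 9.58 against 9.41 to 9.68, and Vwf, the von Willebrand factor gene, on the other side at 0.62 (adjusted p = 0.165). Macrophage markers had 11 of 14 above 0 (median 0.14), at a mean level of 9.13 to 9.35 against 8.88 to 9.31, and the median was 0.03 without beta-titled replicates 31 and 32. Smooth muscle and pericyte markers were divided, with 7 of 12 below 0 (median −0.06, and −0.02 without the same arrays), at 9.49 to 9.77 against 9.62 to 9.79. Atrial markers varied between samples of both groups, from 8.58 to 9.89 with 16α-LE2 and from 8.88 to 9.82 in the beta-titled samples. None of these lists held a gene that passed, and each overlapped between the groups.

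**Figure D4:**
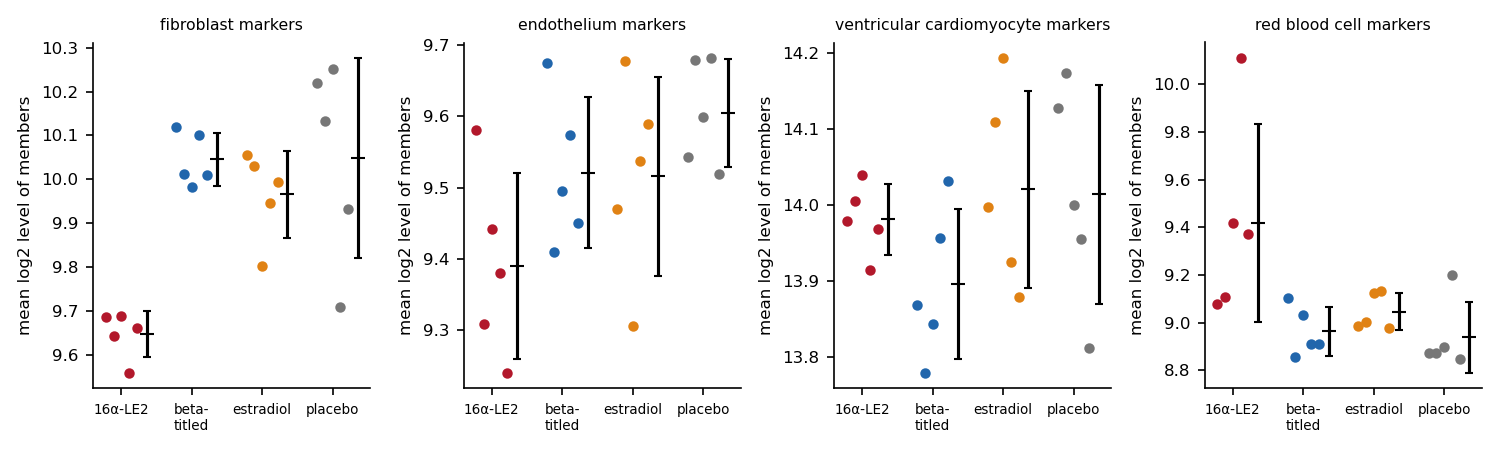
Mean log2 level of the tested markers of 4 cell types (y axis) in the 5 samples of each group (points), with the mean and SD of the group (bars). For fibroblast markers the 16α-LE2 samples (9.56 to 9.69) lie below the beta-titled samples (9.98 to 10.12), for red blood cell markers 16α-LE2 replicate 33 stands highest (10.11), and for endothelium and ventricular cardiomyocyte markers the groups overlap.

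The beta-titled samples can be set beside those given placebo, because both are labelled as controls. The comparisons share arrays, so only their values are given. No gene passed for beta-titled against placebo with limma, and 689 (5.7%) had an unadjusted p under 0.05. Of the 21 genes called here, 13 also passed for 16α-LE2 against placebo, a comparison in which 27 genes passed (0.223%). These 13 were the 12 genes that fell and, of the 9 that rose, Spon1 alone. The others that rose did not pass against placebo, with limma adjusted p from 0.1185 for Slc2a1 to 0.611 for Asb11. Against estradiol 2 of the 21 passed, Nrep and Col14a1, and those were the only genes to pass there (0.0166%). For the 12 genes that fell, the median log2 change was −0.72 against placebo and −0.77 against the beta-titled samples, and the beta-titled samples differed from placebo by −0.09 for Sparc to 0.10 for Aplnr. For the 9 that rose, the median was 0.62 against the beta-titled samples and 0.39 against placebo. All 9 were lower in the beta-titled samples than with placebo, from −0.47 for Nppb to −0.08 for Slc2a1. The median of that difference over all tested genes was −0.04. Genes that rose were called on the same beta-titled values, which favours low ones, so the 9 of 9 is a description only.

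Nppb, Mt2 and Asb11 were the called genes with the widest gaps between the control groups. Nppb averaged 13.05 ± 0.18 with 16α-LE2, 12.54 ± 0.23 with placebo and 12.07 ± 0.35 in the beta-titled samples (SD, n = 5 each). Against placebo its log2 change was 0.51, which did not pass (limma adjusted p = 0.298), with overlap. Asb11 averaged 12.20 ± 0.31, 11.95 ± 0.21 and 11.57 ± 0.19 in the same order, and Mt2 12.15 ± 0.39, 11.64 ± 0.19 and 11.24 ± 0.29. Slc2a1 lay closer in the control groups, at 8.46 ± 0.12 with placebo and 8.38 ± 0.12 in the beta-titled samples. Its log2 change against placebo was 0.39, which did not pass either (limma adjusted p = 0.1185), without overlap. Against estradiol it was 0.14 (limma adjusted p = 0.875), with overlap. Myh7 was the reverse case: it passed against placebo (log2 change 1.35, limma adjusted p = 0.00733), and the beta-titled samples lay 0.45 above placebo. Tnfrsf12a, the receptor of the cytokine TWEAK, had a log2 change of 0.68 against the beta-titled samples (adjusted p = 0.141) and of −0.07 against placebo.

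**Figure D5:**
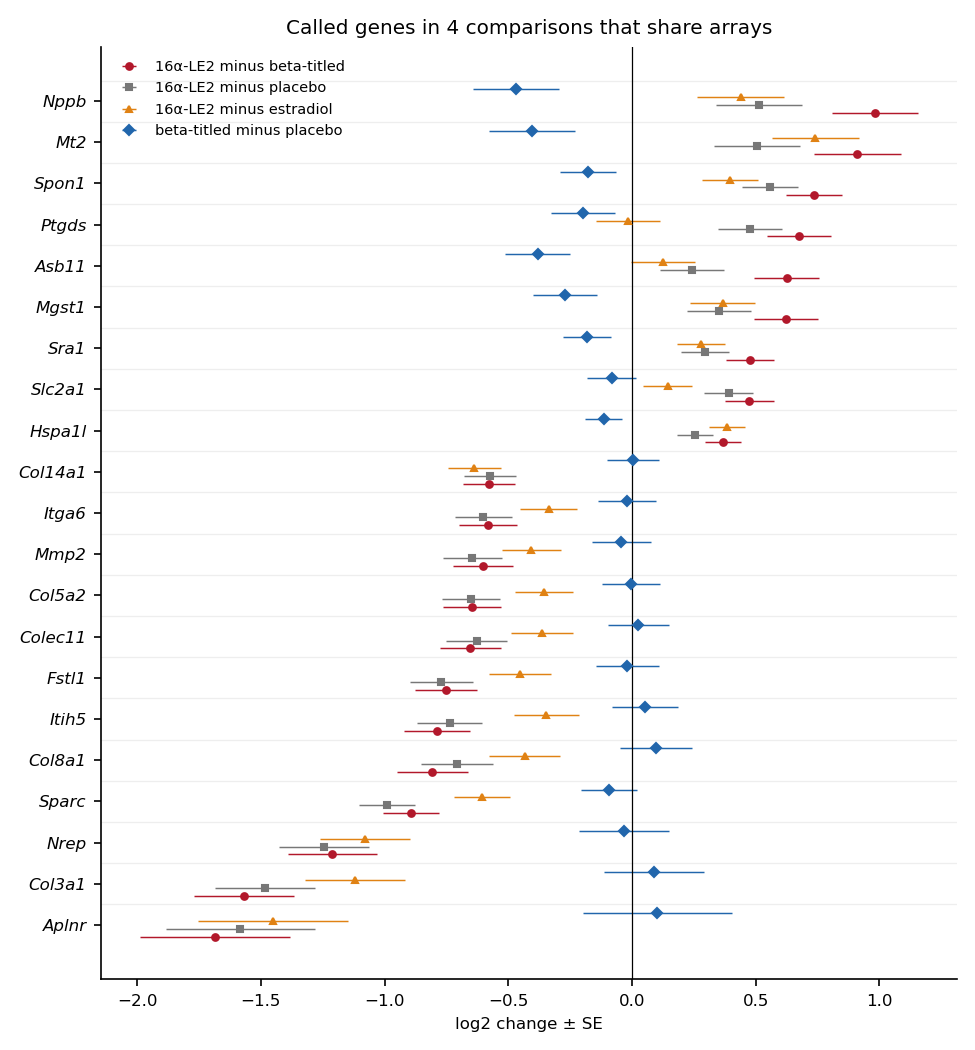
Log2 change with its SE (x axis) of the 21 called genes (rows) in 4 comparisons that share arrays. For the genes that fell, 16α-LE2 minus beta-titled (red) and minus placebo (grey) lie side by side and beta-titled minus placebo (blue) lies near 0, whereas for the genes that rose the blue points are all below 0.

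Against all 15 other samples of the series, the 5 16α-LE2 samples lay wholly to one side for 9 of the 21 genes, and for 26 of all tested genes (0.215%), 5 higher (0.0414%) and 21 lower (0.174%). Sra1 was above and Sparc, Col3a1, Nrep, Itih5, Fstl1, Col5a2, Col14a1 and Mmp2 were below. Ptgds was the 1 called gene whose change against estradiol had the other sign, at −0.02, since it averaged 13.36 ± 0.14 with estradiol and 13.34 ± 0.07 with 16α-LE2. Its estradiol samples ran from 13.21 to 13.51, above every beta-titled sample, the highest of which was 12.93.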

How the data were processed

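The 20 samples were grouped by title, and the beta samples were kept apart from placebo because their titles and treatment labels differ. The deposited log2 values give 45101 probe sets, 1 value per array. Their unit was read from the values (5.07 to 15.31), and software, normalization and background step, as applied by the authors, were not given in the sources used here. A low level therefore cannot be separated from background. Per the labels' protocols, 100 ng of total RNA was labelled with biotin. Control probe sets (64), 932 with several symbols and 9160 with none were left out. Of 34945 probe sets with 1 symbol, 34741 were matched by gene ID to the reference table (GRCm38.p6), with equal symbols. Each gene was represented by its probe set of highest mean over the 20 arrays, kept where that mean exceeded the median of all probe sets (6.93).

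A model of group means over the 20 arrays was fitted in limma 3.58.1 (R 4.3.3; eBayes with a trend). Genes were called at an adjusted p under 0.05 (Benjamini-Hochberg, 12082 genes). The fit was tested on simulated data with independent noise for each gene and array. Deviations shared by many genes of an array were not part of that test. A fold is 2 to the power of the log2 change. The deposited values hold no dates, so no batch could be formed. The 33 gene lists (451 of 535 symbols tested) and the genes named were chosen with earlier results of these data known. Counts without Nrep were added after seeing the data. By rule, the genes named are the called genes (at most 15 rises and 15 falls), the next by p up to 30 in all, up to 4 called members of each list or, with none called, the 2 of smallest p, and a fixed set. Further list members, such as Irs1, Dcn and Lox, were named after their values were seen. Replicate numbers were not treated as pairs: samples sharing a number in both groups (2 pairs) had correlations of their deviations of −0.23 and 0.20, and the other 23 pairs −0.54 to 0.66. Alternatives covered the filter, probe set choice, scaling, array weights, arrays fitted, block, moderation, control group, threshold and each array left out. Figures were drawn with matplotlib 3.10.9.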

Additional observations from a re-analysis of the deposited data

Results flagged for a closer look

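Within the 16α-LE2 and beta-titled groups, 10 of 168 pairs of a named gene and a group held 1 sample far from the other 4 (Dixon's test; chance alone gives about 1 in 20 groups). In the 16α-LE2 group, Car2, a carbonic anhydrase, was high in replicate 33 at 9.06 against 8.35 to 8.50, and Klf2, a transcription factor of endothelium, was high in replicate 29 at 9.18 against 8.73 to 8.80.

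The other 8 lay in the beta-titled group. Replicate 33 held 3 of them, all high: Itga6 at 9.54 against 9.13 to 9.23, Ddr2 at 8.54 against 8.37 to 8.42, and Ddx17, an RNA helicase, at 10.57 against 10.02 to 10.16. Replicate 35 held 2, Myh7 at 10.64 against 9.93 to 10.01 and Hspa1l at 7.25 against 7.14 to 7.16. Col14a1 was high in replicate 31 at 7.64 against 7.46 to 7.51. Jun was high in replicate 36 at 9.70 against 9.43 to 9.48. Kcnj8, a potassium channel of pericytes, was low in replicate 32 at 9.94 against 10.25 to 10.36. For Hspa1l, Myh7 and Jun the high beta-titled sample lies on the side of the 16α-LE2 group, as does the low one for Kcnj8. For Itga6, Ddr2, Ddx17 and Col14a1 the high sample lies on the far side.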

How the results depend on the processing

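The number of genes called, 21, was 20 with no filter on low levels, 21 with a stricter filter, 16 when the probe sets of each gene were averaged, 19 without a trend and 19 of 22518 when all probe sets were counted. It moved by more than 1.5 times to 32 after quantile normalization (9 higher, 23 lower; 20 of the 21 among them), 13 with median centring, 122 with array weights (21 among them), 46 with the 10 arrays of the comparison alone, 71 with beta-titled and placebo arrays pooled, 34 at an adjusted p under 0.10 and 6 under 0.01. Over the 20 fits with 1 array left out it ran from 7 to 37. With the replicate block it was 15, of which 7 were among the 21. These were Sparc, Col3a1, Nrep, Itih5, Spon1, Aplnr and Col5a2, and the calls of the other genes, such as Fstl1 and Nppb, were lost. Under the block the list medians were 0.39 for macrophage markers, −0.27 for fibroblast markers, −0.12 for noncollagen matrix proteins and −0.08 for interferon-stimulated genes. The median of the list of estrogen-related receptors and estrogen targets, 15 genes tested, was −0.02 without beta-titled replicates 31 and 32. Settings added after seeing the data gave 2 without beta-titled replicates 31 and 32 and 30 with arrays scaled to equal SD, which held all 21.

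Of the 2680 values of named genes under these settings, 20 turned sign, none of them of a called gene. Cdkn1a was −0.065, Mpp7 −0.12 and Pdk4 −0.064 with controls pooled, Pdk4 −0.19 and Myh6 −0.092 with the replicate block, Myh6 −0.046 and Upk1b −0.043 with probe sets averaged, Myh6 −0.069 and Tnnc1 −0.010 after quantile normalization, Myh6 −0.057 at equal SD, and Slc2a4 −0.020 without the narrow arrays. With 1 array left out Myh6 ran from −0.037 to 0.089 and Upk1b from −0.026 to 0.043. The cause was not tested. The values come with no measure of background, so what low probe sets can show is unknown.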

Other observations

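Gene groups outside the matrix, muscle and glucose genes held few calls. All 15 tested interferon-stimulated genes were below the beta-titled level (median −0.19) with none past the threshold, from Ifit3 at −0.41 to Oas2 at −0.01. With the replicate block 11 were below and 4 above (median −0.08), and without beta-titled replicates 31 and 32 14 were below (median −0.26). Of 14 glucocorticoid-responsive genes 11 were above it (median 0.21). Mt2 passed, and Mt1, another metallothionein, with a log2 change of 0.51 (adjusted p = 0.141), and Lcn2, with 0.62 (adjusted p = 0.154), did not. Ddit4 and Tsc22d3, which glucocorticoids also induce, had log2 changes of −0.25 and −0.21.

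Immediate early genes, which respond within minutes to a stimulus, had 14 of 17 above 0 (median 0.15), led by Atf3 at 0.38, and Klf2 on the other side at −0.36, without a call. Without beta-titled replicates 31 and 32 that median was 0.05, with 11 above 0. Heat shock and folding genes were divided, with 11 of 18 above 0 (median 0.05), from Hspa1b at −0.66 to Hspb1 at 0.35 (adjusted p = 0.594). Their median turned to −0.03 after quantile normalization, with 7 of 18 above 0, and to −0.08 without beta-titled replicates 31 and 32, with 3 of 18 above 0. Circadian clock genes were divided as well, with 8 of 15 below 0 (median −0.03), from Hlf at −0.42 (adjusted p = 0.708) to Arntl at 0.23. RNA splicing genes (20 tested) had a median of −0.01 (−0.07 without the same arrays and 0.0023 with median centring), and calcium handling genes and channels (13 tested) one of 0.07, with no call in either. That of calcium handling genes was −0.03 after quantile normalization, −0.01 with arrays scaled to equal SD and −0.0056 without those arrays. The largest positive change of any tested gene was that of S100a9, a protein of neutrophils, at 1.20, which did not pass (limma adjusted p = 0.43) and was named after its value was seen.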
